A study of Mus musculus with 24 samples.

Results

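The endocannabinoid system was described through 8 genes in the hypothalamus of overfed and control mice: the cannabinoid receptor Cnr1, its binding partner Cnrip1, the synthesis enzymes Dagla, Daglb and Napepld, and the breakdown enzymes Mgll, Abhd6 and Faah. They were taken by name from the 55471 genes in the count table, and all 8 passed the filter on low counts that left 18992 genes for testing. Poly-A RNA of whole hypothalamus was sequenced from 24 male C57BL6/J mice, 18 weeks old and chow-fed, each from a separate animal and 6 per group. All mice, controls included, carried a gastric catheter. Experimental overfeeding (ExpOF) was an intragastric infusion of a sucrose-enriched liquid diet, raised stepwise until it supplied 150% of baseline energy on day 9, while Control mice received sterile water at equal rates. ExpOF d14 and Control d14 mice were killed on day 14, at the end of overfeeding. ExpOF d14+3 and Control d14+3 mice were killed on day 17, 3 days after both diets had been switched to slow water infusion. Dates of death fell in July or September, with 3 mice of each group in each cohort, and RNA was extracted in 2 rounds.

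Endocannabinoids are lipid messengers that are made on demand, mostly in the postsynaptic neuron, and travel backwards across the synapse. The CB1 receptor on the axon terminal then lowers transmitter release through Gi and Go proteins. 2-arachidonoylglycerol (2-AG) is made by diacylglycerol lipases from diacylglycerol and is cleared mainly by monoacylglycerol lipase, whereas anandamide belongs to the N-acylethanolamines and is cleared by fatty acid amide hydrolase. In the hypothalamus this system is known for promoting feeding, and CB1 blockade lowers food intake. The comparisons ask whether its genes differed at the end of overfeeding and 3 days into recovery.

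The study excluded 1 mouse of the Control d14 group for poor RNA quality. Only without replicate 4 did the genes' mean scaled counts over all remaining libraries match those of the study. It was therefore left out as that mouse, although its label gives an RNA integrity number (RIN) of 9.8. This leaves 5 Control d14 libraries and 6 in each other group. Total counts per library ran from 8928182 to 34848437. RIN averaged 9.20 ± 0.86 in Control d14 (SD, n = 5), 9.75 ± 0.14 in ExpOF d14 (n = 6), 8.62 ± 1.09 in Control d14+3 (n = 6) and 9.43 ± 0.45 in ExpOF d14+3 (n = 6). All 12 hypothalamus markers examined, among them Pomc, Agrp, Npy and Hcrt, were detected in every group. Choroid plexus markers, whose summed level had group medians of 28.8 to 37.6 CPM (counts scaled to each library's total), reached 2972 CPM in 1 Control d14 library and 1258 CPM in 1 ExpOF d14+3 library. The summed level of 4 thalamus markers (Tcf7l2, Lef1, Prkcd and Ntng1) differed between the days: it ran from 122 to 412 CPM in Control d14 and 133 to 288 CPM in ExpOF d14, against 317 to 661 CPM in Control d14+3 and 290 to 642 CPM in ExpOF d14+3. In bulk tissue, fewer cells of a type and less RNA per cell cannot be told apart.

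The promoters of Cnr1, Mgll and Napepld are shown because these genes stand for the receptor, which ran against the enzymes between libraries, and for a breakdown and a synthesis enzyme that were higher on d14+3. Each is the 250 bases before the RefSeq transcription start nearest to the gene's start in the count table (GRCm38.p6, which is mm10), written 5′ to 3′ on the gene's strand. Capitals mark CACGTG, the canonical E box, the only match found in these 3 windows among 4 motifs searched on both strands. The other 3 motifs were the GC box GGGCGG, the TATA box TATAAA and the cyclic AMP response element TGACGTCA. CACGTG reads the same on both strands, and none of the 4 motifs contains another.
Cnr1 (chr4:33924394-33924643, plus strand): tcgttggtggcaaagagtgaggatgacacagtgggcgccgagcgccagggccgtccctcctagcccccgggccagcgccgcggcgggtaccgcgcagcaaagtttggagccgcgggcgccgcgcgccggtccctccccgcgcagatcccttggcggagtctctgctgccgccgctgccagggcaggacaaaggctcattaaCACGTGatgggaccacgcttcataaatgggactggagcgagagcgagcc
Mgll (chr6:88724162-88724411, plus strand): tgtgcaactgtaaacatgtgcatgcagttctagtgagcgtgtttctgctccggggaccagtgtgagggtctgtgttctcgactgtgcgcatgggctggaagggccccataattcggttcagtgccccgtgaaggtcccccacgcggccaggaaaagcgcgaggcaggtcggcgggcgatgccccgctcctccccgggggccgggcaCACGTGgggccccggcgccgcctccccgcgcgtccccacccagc
Napepld (chr5:21701623-21701872, minus strand): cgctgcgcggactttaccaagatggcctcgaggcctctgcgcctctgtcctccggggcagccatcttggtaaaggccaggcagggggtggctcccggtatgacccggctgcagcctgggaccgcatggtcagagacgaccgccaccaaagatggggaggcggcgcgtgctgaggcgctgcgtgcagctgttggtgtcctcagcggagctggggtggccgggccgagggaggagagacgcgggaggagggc
CACGTG occurred once in the window of Cnr1 and once in that of Mgll, and was not found in that of Napepld. The RefSeq start lay 51 bases inside the count table's span of Cnr1, and its CACGTG falls within that span. For Napepld the RefSeq start lay 226 bases ahead of the span, and the bases between were not searched. For Mgll the distance was 0. Among all 32851 RefSeq windows of this length, 6.02% held it, while the GC box was in 32.7%, the TATA box in 12.4% and the cyclic AMP response element in 1.55%. The 3 windows were rich in G and C, at 68.8% for Cnr1, 68% for Mgll and 69.6% for Napepld, against a median of 52.4% over all windows. A match describes the letters and is no evidence of binding.

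TPM scales counts by gene length as well as library total and so allows levels of different genes to be compared. The length used was the summed exon length, which was 9567 bases for Daglb and 4003 for Cnrip1. Their longest transcripts were shorter, at 4877 and 2153 bases. The order given here depends on that choice, and an order by transcript length was not tested. In TPM the means of the 8 genes ran from 11.9 to 63.6, with the upper ranks down to Dagla close together. Mgll had the highest mean over the 23 libraries at 63.6 ± 13.5 TPM (SD), followed by Cnr1 at 62.1 ± 13.4, Cnrip1 at 56.6 ± 2.50, Abhd6 at 54.0 ± 5.37 and Dagla at 48.9 ± 9.02 TPM. Faah at 25.7 ± 2.51, Napepld at 23.3 ± 3.79 and Daglb at 11.9 ± 1.02 TPM were the lowest. Mgll exceeded Cnr1 in 12 of 23 libraries, so these neighbours did not differ beyond their spread, and neither did the next ranks down to Dagla, where the higher gene led in 15 to 18 of 23 libraries. Dagla exceeded Faah in 23 of 23 libraries and Napepld exceeded Daglb in 23 of 23, whereas Faah exceeded Napepld in 18, within their spread. Of the pair of diacylglycerol lipases, Dagla, the main source of 2-AG in neurons, was thus the more abundant in each library. Mgll stood at the 83.7th percentile and Daglb at the 47.0th percentile of all genes tested.

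**Figure D1:**
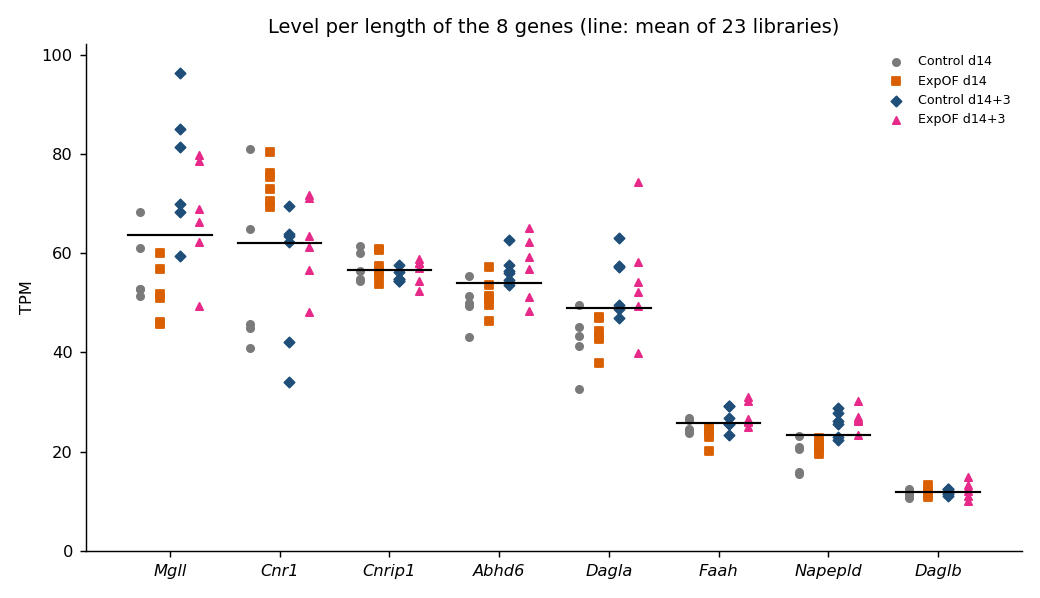
Level per length (TPM, linear axis from 0) of the 8 genes, ordered by mean, with 1 point per library, group by colour and shape, and a line at the mean of the 23 libraries. The upper 5 genes lie together between 48.9 and 63.6 TPM on average, and the points of Cnr1, Mgll and Dagla scatter most.

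By coordinates of the count table (mm10), Cnr1 lies at chr4:33924593-33948819 on the plus strand, Cnrip1 at chr11:17051586-17079371 (plus), Dagla at chr19:10245265-10304877 (minus) and Daglb at chr5:143464584-143505942 (plus). Napepld lies at chr5:21662901-21701396 (minus), Mgll at chr6:88724412-88828360 (plus), Abhd6 at chr14:8002902-8056763 (plus) and Faah at chr4:115967145-116017675 (minus). The counts cover annotated exons of each gene as a whole. Daglb shares part of its span with Rac1 on the opposite strand, which had up to 8743 counts per library, and Cnrip1 shares part of its span with Plek, which had up to 611. Whether counting used the strand is not given in the sources used here, so reads in those overlaps are uncertain.

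Cnr1 encodes the CB1 receptor, the main cannabinoid receptor of the brain. In Control d14 its level was 71.4, 80.4, 81.9, 107 and 129 CPM in the 5 libraries. In ExpOF d14 it ran from 113 to 135 CPM with a median of 122 CPM. The ExpOF libraries were tightly grouped and the Control libraries widely spread, and the groups overlapped because the highest Control library exceeded 5 of the 6 ExpOF libraries. The fitted change on d14 was 0.38 on the log2 scale (SE 0.15, 95% interval 0.07 to 0.69), a level 1.30-fold higher in ExpOF, with an unadjusted p of 0.0173 and an adjusted p of 0.142 (edgeR quasi-likelihood test, Benjamini-Hochberg over all 18992 genes). The two-sided exact permutation p was 0.0346, where this design can reach 0.00433. Cnr1 therefore did not pass the threshold of 0.05 over all genes. Within cohorts the log2 difference was 0.44 in July (adjusted p = 0.25) and 0.29 in September (adjusted p = 0.872). Without Control d14 replicate 1, the highest library of that group, the difference was 0.53 with an adjusted p of 0.0215, and with DESeq2 the adjusted p was 0.0972. After each library's trends with GC content and gene length were removed it was 0.24 (adjusted p = 0.238). Without Control d14 replicate 5, the library rich in choroid plexus markers and the lowest for Cnr1, the difference was 0.30 (adjusted p = 0.335).

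On d14+3 Cnr1 ran from 62.6 to 116 CPM in Control (median 105) and from 83.4 to 118 CPM in ExpOF (median 102), and the groups overlapped over most of their range. The log2 difference was 0.11 (SE 0.14, interval -0.18 to 0.40, adjusted p = 0.823). Between ExpOF d14 and ExpOF d14+3 the log2 difference was -0.25 (SE 0.14, adjusted p = 0.724, exact permutation p = 0.0152), with 4 of the 6 recovery libraries below all ExpOF d14 libraries. Between the Control groups it was 0.02 (SE 0.15, adjusted p = 0.982). The change of the diet difference from d14 to d14+3 was -0.27 (interval -0.69 to 0.15, adjusted p = 0.903), so a difference between the days was not detectable.

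Cnrip1 encodes a cytosolic protein that binds the tail of the CB1 receptor. It was the steadiest of the 8 genes, with 52.8 to 64.1 CPM over all 23 libraries. Its log2 difference was -0.05 on d14 (interval -0.16 to 0.06) and -0.02 on d14+3 (interval -0.12 to 0.08), and between the days it was -0.02 in ExpOF and -0.05 in Control. The intervals on both days reached no farther than 0.16 from 0 on the log2 scale.

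**Figure D2:**
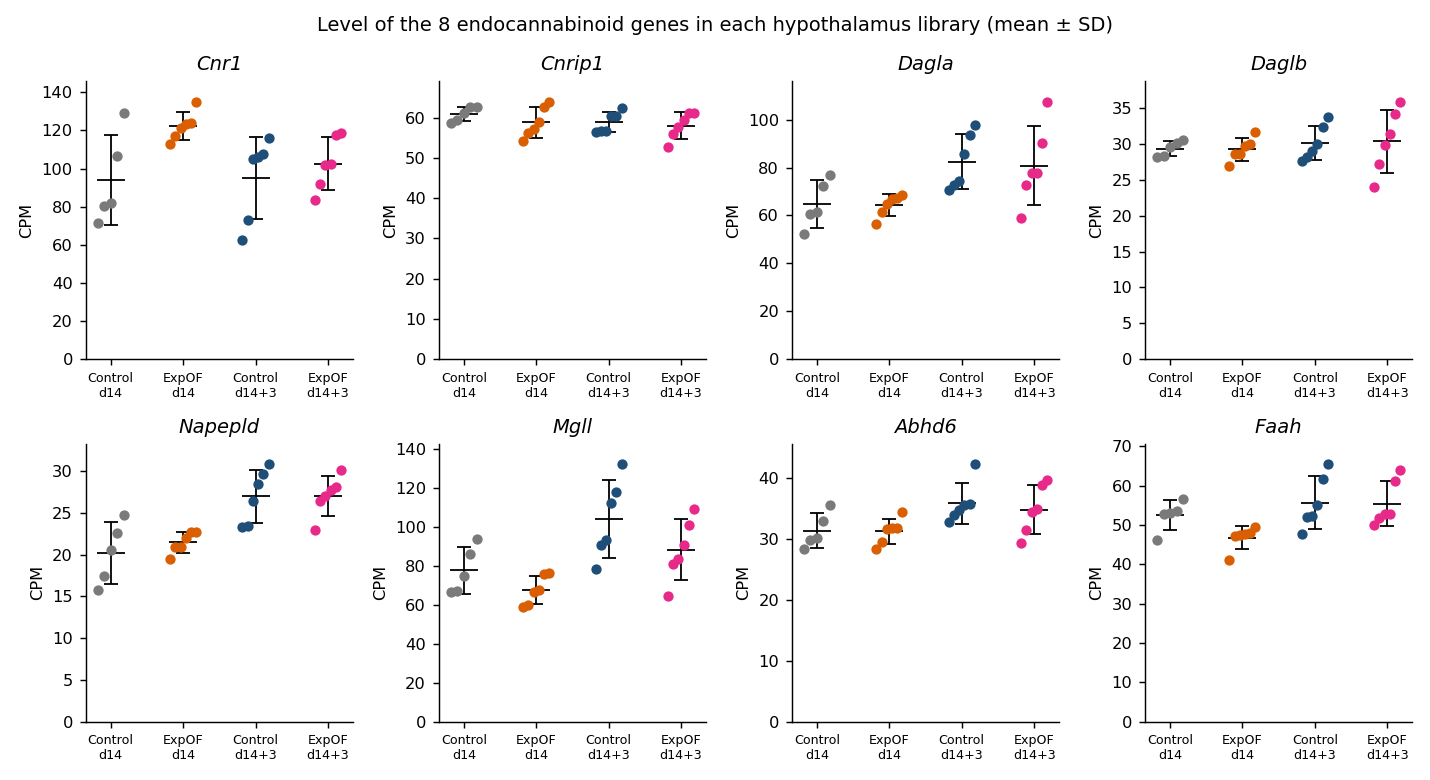
Level of each gene in CPM (linear axes from 0) in the 4 groups, with 1 point per library and the mean ± SD (n = 5 in Control d14, n = 6 in the others). Cnr1 is tight in ExpOF d14 (113 to 135 CPM) and spread in Control d14 (71.4 to 129 CPM), and Napepld, Mgll and Dagla sit higher in both d14+3 groups.

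The enzymes were compared next, beginning with synthesis. Dagla measured 52.1, 60.7, 61.6, 72.3 and 77.0 CPM in Control d14 and ran from 56.2 to 68.5 CPM (median 65.9) in ExpOF d14. On d14+3 it ran from 70.8 to 97.7 CPM (median 80.1) in Control and from 58.8 to 108 CPM (median 77.7) in ExpOF. The diets overlapped widely on each day, while the d14+3 libraries of both diets were mostly higher than the d14 libraries. The log2 difference between diets was -0.01 on d14 (interval -0.26 to 0.24, adjusted p = 0.955) and -0.03 on d14+3 (interval -0.27 to 0.20, adjusted p = 0.944). Daglb, the second diacylglycerol lipase, ranged from 24.0 to 35.9 CPM over all libraries, with log2 differences between diets of -0.00 on d14 (interval -0.17 to 0.16) and 0.01 on d14+3 (interval -0.15 to 0.17).

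Napepld encodes the phospholipase D that releases anandamide and other N-acylethanolamines from membrane phospholipids. It measured 15.7, 17.4, 20.6, 22.6 and 24.7 CPM in Control d14 and ran from 19.5 to 22.7 CPM (median 21.5) in ExpOF d14. On d14+3 it ran from 23.3 to 30.8 CPM (median 27.4) in Control and from 22.9 to 30.2 CPM (median 27.3) in ExpOF. Each ExpOF d14+3 library was above each ExpOF d14 library, and 4 of the 6 Control d14+3 libraries were above all Control d14 libraries. Between diets the log2 difference was 0.09 on d14 (interval -0.12 to 0.29, adjusted p = 0.575) and 0.00 on d14+3 (interval -0.19 to 0.19, adjusted p = 1.00).

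Mgll encodes monoacylglycerol lipase, which hydrolyses most 2-AG in the brain. It measured 66.5, 66.8, 74.7, 86.2 and 93.9 CPM in Control d14 and ran from 59.0 to 76.0 CPM (median 67.1) in ExpOF d14. On d14+3 it ran from 78.2 to 132 CPM (median 103) in Control and from 64.2 to 109 CPM (median 87.2) in ExpOF. ExpOF means were the lower ones on each day, with overlapping groups. The log2 difference was -0.20 on d14 (SE 0.13, interval -0.47 to 0.07, adjusted p = 0.314) and -0.24 on d14+3 (SE 0.13, interval -0.50 to 0.02, adjusted p = 0.726), and neither passed the threshold. Within the July cohort the values were -0.23 on both days, and in September they were -0.19 on d14 and -0.25 on d14+3.

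Faah encodes fatty acid amide hydrolase, which breaks down anandamide. In Control d14 it measured 46.2, 52.9, 53.1, 53.7 and 56.7 CPM. In ExpOF d14 it ran from 41.1 to 49.4 CPM with a median of 47.5 CPM. All but 1 of the Control libraries were above all ExpOF libraries, and the log2 difference was -0.16 (SE 0.08, interval -0.33 to -0.00, unadjusted p = 0.0492, adjusted p = 0.186, exact permutation p = 0.026). On d14+3 the medians were 53.7 CPM in Control (range 47.6 to 65.4) and 52.8 CPM in ExpOF (highest 63.9), with overlapping groups and a log2 difference of -0.01 (interval -0.16 to 0.15). Abhd6, which encodes a further 2-AG hydrolase located on the postsynaptic side, ranged from 28.2 to 42.2 CPM over all libraries, and its log2 difference was -0.01 on d14 (interval -0.17 to 0.16) and -0.05 on d14+3 (interval -0.20 to 0.11).

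Across the 8 genes, 0 passed the adjusted threshold on d14, where 0.00527% of all genes tested were called, that is, 1 gene. That number was 4220 without Control d14 replicate 1 and 1 to 3 without any other single library. At an unadjusted p under 0.05, Cnr1 was higher and Faah lower, 2 of 8 genes, a share close to the 26.7% of all genes tested. No member separated the diets without overlap on d14, against 2.5% of all genes. The median log2 difference of the 8 was -0.01, beside -0.02 over all genes tested. On d14+3, 0 of 8 passed, as did 0% of all genes, and 0 of 8 had an unadjusted p under 0.05, against 7.11% of all genes. No member separated the diets without overlap there either, against 0.421% of all genes, and the median was -0.02 beside 0.01 over all genes. With DESeq2, which called 166 genes on d14 and 55 on d14+3, 0 of the 8 passed on either day. For the change of the diet difference between the days, 0 of 8 passed the adjusted or the unadjusted threshold, against 0% and 4.42% of all genes.

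**Figure D3:**
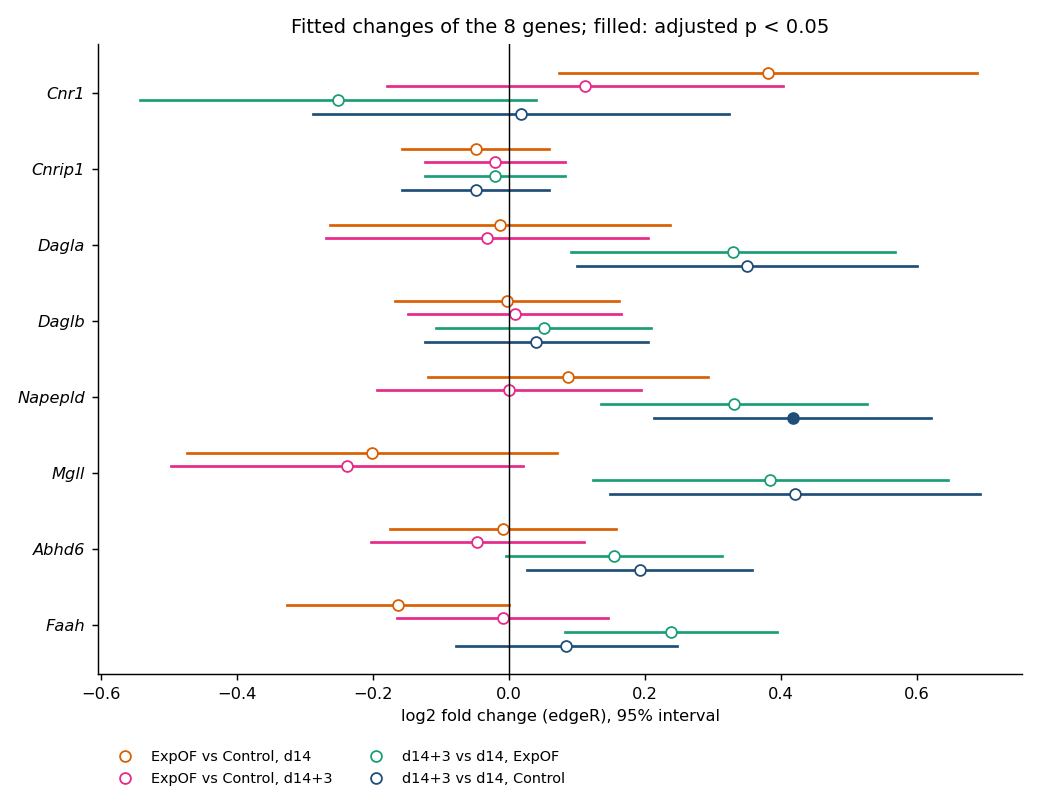
Fitted log2 fold change (point) with its 95% interval (line) for each gene in 4 comparisons, where a filled point passed an adjusted p of 0.05. Only Napepld between the Control groups is filled, and the intervals of Napepld, Mgll and Dagla lie above 0 in both comparisons between days.

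From d14 to d14+3 the fitted differences of the 6 enzymes were above 0 in both diets, though few passed the test. Napepld rose between the Control groups, by 0.42 on the log2 scale (SE 0.10, interval 0.21 to 0.62, 1.34-fold, adjusted p = 0.0332), and its difference between the ExpOF groups was 0.33 (SE 0.09, interval 0.14 to 0.53, 1.26-fold, adjusted p = 0.154, exact permutation p = 0.00216, the smallest this design allows). Mgll differed by 0.42 in Control (SE 0.13, adjusted p = 0.133) and 0.38 in ExpOF (SE 0.13, adjusted p = 0.281), and Dagla by 0.35 (SE 0.12, adjusted p = 0.188) and 0.33 (SE 0.12, adjusted p = 0.329). Abhd6 differed by 0.19 (SE 0.08, adjusted p = 0.296) in Control and 0.15 (SE 0.08, adjusted p = 0.663) in ExpOF. Faah differed by 0.08 in Control (SE 0.08, adjusted p = 0.732) and by 0.24 in ExpOF (SE 0.08, adjusted p = 0.24), where all 6 recovery libraries were above all d14 libraries. Of the 8 genes, 1 was called between the Control groups, against 1.15% of all genes tested (0.953% called higher), and 0 between the ExpOF groups, against 0%. At an unadjusted p under 0.05, 4 of 8 were higher in each diet, against 12.7% of all genes in either direction and 6.81% higher in Control, and 7.79% and 5.39% in ExpOF. Napepld and Faah separated the ExpOF days without overlap, against 0.832% of all genes, and no member separated the Control days, against 1.58%. The call of Napepld between the Control groups was lost when only these groups were fitted (adjusted p = 0.22) and without any 1 of 6 single libraries (adjusted p up to 0.152).

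The pair of comparisons between days shares no library, so their average over both diets was also tested, a contrast chosen after the data were seen. Napepld rose by 0.37 (SE 0.07, adjusted p = 0.00195), Mgll by 0.40 (SE 0.09, adjusted p = 0.0114) and Dagla by 0.34 (SE 0.08, adjusted p = 0.0198). These are 1.30-, 1.32- and 1.27-fold higher levels on d14+3. Abhd6 (0.17, adjusted p = 0.0882), Faah (0.16, adjusted p = 0.114), Daglb (0.05, adjusted p = 0.85), Cnrip1 (-0.03, adjusted p = 0.804) and Cnr1 (-0.12, adjusted p = 0.733) did not pass. Thus 3 of 8 were called, all higher, against 3.67% of all genes (2.87% called higher), and 5 of 8 had an unadjusted p under 0.05, against 13.7% of all genes (8.13% higher). The median of the 8 was 0.17, beside -0.00 over all genes tested. Within the July cohort the values were 0.40 for Napepld, 0.35 for Mgll and 0.35 for Dagla, and within September 0.33, 0.46 and 0.33, and adjusted p-values ran from 0.165 to 0.453 in these cohorts of up to 3 mice per group. The call of Dagla was lost with the replicate number as a block (adjusted p = 0.053) or without the filter on low counts (adjusted p = 0.0528), and that of Mgll with all 24 libraries (adjusted p = 0.0974).

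The thalamus markers moved with these enzymes. All 4 were called higher on d14+3 in the average over both diets, with a median log2 difference of 0.92, and of the 12 hypothalamus markers 4 were called lower and 0 higher, with a median of -0.34 and summed group medians of 917 (Control d14), 789 (ExpOF d14), 706 (Control d14+3) and 619 CPM (ExpOF d14+3). Of the markers of neurons in general, 2 of 5 were called higher, as was 1 of 5 for oligodendrocytes, while 1 of 3 for tanycytes, 1 of 5 for the striatum and the pituitary marker Gh, at -6.64, were called lower. With the log2 summed thalamus level as a covariate, the difference between days was 0.10 for Napepld (adjusted p = 0.419), -0.05 for Mgll (adjusted p = 0.733) and -0.06 for Dagla (adjusted p = 0.663). In that fit Cnr1 was 0.32 higher on d14+3 (adjusted p = 0.0839), and its d14 difference between diets was 0.34 (adjusted p = 0.114). Within groups, a doubling of the thalamus markers went with log2 slopes of 0.37 for Mgll (SE 0.05, adjusted p = 4.03e-05), 0.33 for Dagla (SE 0.05, adjusted p = 0.000142), 0.23 for Napepld (SE 0.05, adjusted p = 0.00306), 0.17 for Abhd6 (SE 0.04, adjusted p = 0.00669), 0.16 for Faah (SE 0.05, adjusted p = 0.0139) and -0.37 for Cnr1 (SE 0.07, adjusted p = 0.0014). Daglb at 0.09 (adjusted p = 0.233) and Cnrip1 at 0.00 (adjusted p = 0.967) did not pass, so 6 of 8 were called, against 29.3% of all genes, and also 6 of 8 at the unadjusted threshold, against 40.9%. Within cohorts the slope of Mgll was 0.35 in July and 0.34 in September, and that of Cnr1 -0.34 in July (adjusted p = 0.15) and -0.44 in September (adjusted p = 0.0068). The slope of Napepld did not pass within either cohort (adjusted p = 0.0719 and 0.0726), nor did those of Abhd6 and Faah, and with all 24 libraries the slope of Napepld was 0.14 (adjusted p = 0.152). The covariate was chosen after the marker sums were seen, and what tissue the marker RNA came from was not tested.

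**Figure D4:**
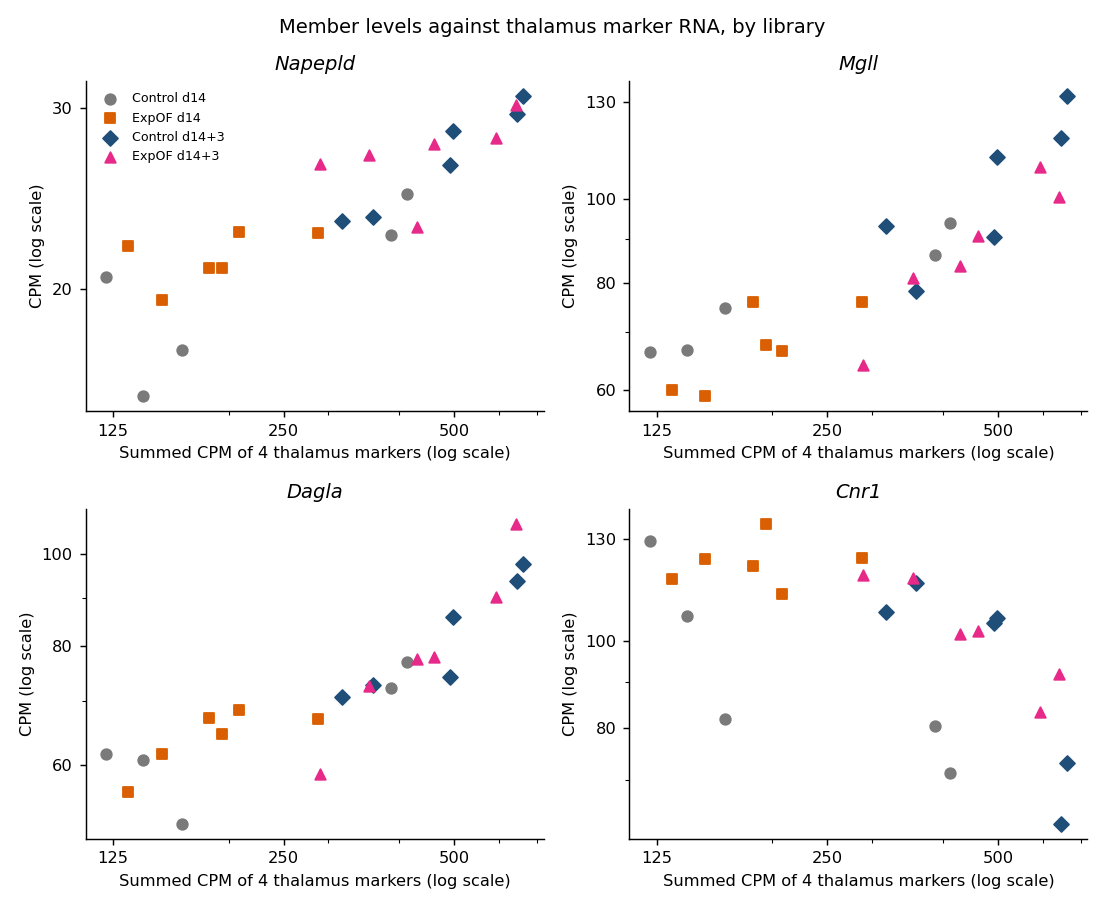
Level of Napepld, Mgll, Dagla and Cnr1 (CPM, log axis) against the summed CPM of 4 thalamus markers (log axis), with 1 point per library and groups by colour and shape. The enzymes are higher and Cnr1 is lower in libraries with more thalamus marker RNA, and d14+3 libraries (290 to 661 CPM) lie mostly to the right of d14 libraries (122 to 412 CPM).

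Between libraries of the same group, Cnr1 ran against the other genes. After removal of the group means, its Pearson correlation over 23 libraries was -0.88 with Faah, -0.75 with Mgll, -0.65 with Abhd6, -0.61 with Dagla, -0.54 with Napepld, -0.51 with Daglb and -0.24 with Cnrip1. The value for Faah was -0.88 in July (12 libraries), -0.90 in September (11 libraries), -0.83 without the 2 farthest libraries and -0.84 as Spearman's rho. Among the enzymes, Dagla and Mgll, which make and break down 2-AG, were correlated at 0.85, with 0.86 in July and 0.97 in September. Cnrip1 correlated with the enzymes at -0.21 (Dagla) to 0.16 (Faah) over all 23 libraries and with the hypothalamus marker sum at 0.61. For each enzyme other than Faah, the pooled value joins cohort values of opposite sign. With Faah, Cnrip1 was at 0.03 in July and 0.30 in September, and with the hypothalamus marker sum at 0.70 and 0.58. Cnrip1 and Dagla were at -0.54 in July and 0.41 in September, Cnrip1 and Mgll at -0.27 and 0.55, and Cnrip1 and Napepld at -0.11 and 0.67. Whether these correlations differ between the cohorts was not tested. Among summed cell type markers, those of cholecystokinin interneurons (Cck, Htr3a and Slc17a8) ran against Cnr1 at -0.77 (-0.72 in July, -0.88 in September) and with Mgll at 0.86. That sum was mostly Cck, with Control d14 means of 22.6 CPM for Cck, 3.50 for Htr3a and 3.96 for Slc17a8. It thus describes Cck more than a cell type. Markers of oligodendrocytes ran against Cnr1 at -0.66. Markers of astrocytes ran with Cnr1 at 0.75, those of cerebral cortex and hippocampus at 0.74 and those of oligodendrocyte precursors at 0.67. Genes of 1 library share its depth, RNA quality and tissue pieces, so these values are descriptions. Transcript GC content ran from 44.9% for Cnr1 to 58.8% for Dagla, and after each library's trends with GC content and length were removed, the value for Cnr1 and Faah was -0.76 that for Dagla and Mgll 0.80, and those for Cnrip1 0.51 with Daglb and 0.50 with Faah.

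**Figure D5:**
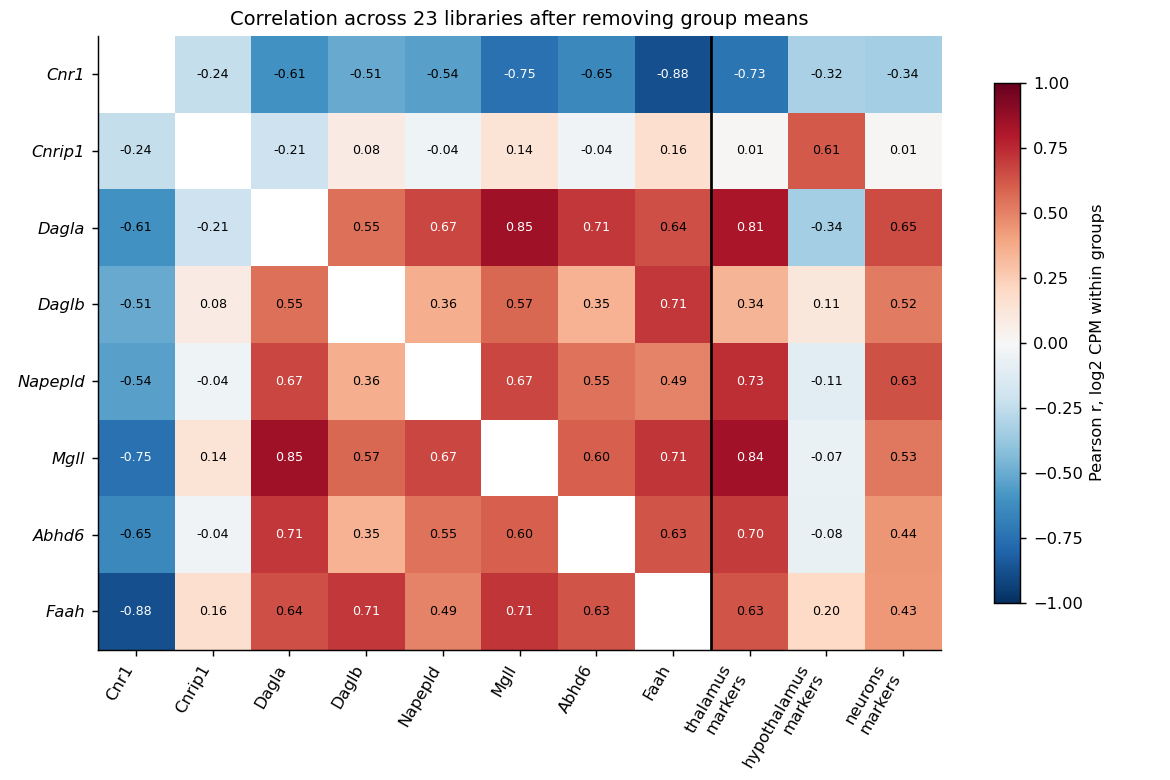
Pearson correlation (colour and number) of log2 CPM across 23 libraries after the group means were removed, among the 8 genes (left of the line) and with the summed thalamus, hypothalamus and neuron markers (right). The row of Cnr1 is negative throughout, down to -0.88 with Faah, while the enzymes are positive with each other.

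RNA integrity and cohort were examined for each gene. No member had a called slope on RIN, where 0% of all genes were called, and 0 of 8 had an unadjusted p under 0.05, against 6.42% of all genes. For Cnr1 the slope was -0.15 per RIN unit (SE 0.08, unadjusted p = 0.0571, adjusted p = 0.715). The cohorts differed from this pooled count. In July 6 of 8 had an unadjusted p under 0.05, against 22.2% of all genes, with slopes of -0.31 for Cnr1 (adjusted p = 0.0693), 0.26 for Dagla (adjusted p = 0.102), 0.23 for Mgll (adjusted p = 0.0954), 0.16 for Napepld (adjusted p = 0.158), 0.16 for Faah (adjusted p = 0.118) and 0.15 for Abhd6 (adjusted p = 0.167). In September 0 of 8 did, against 2.44% of all genes, and the slope of Cnr1 was 0.06. Whether the slopes differ between the cohorts was not tested. In July most of the RIN range within groups lay in Control d14+3, with 9.9 in replicate 3 against 7.2 and 7.9 in replicates 5 and 6. Replicate 3 also differed from these in extraction round (1 against 2). Its thalamus marker sum was 646 CPM, against 317 and 359 CPM. RIN cannot be told apart from these in the July slopes. Between September and July 0 of 8 differed at either threshold, against 0% and 4.28% of all genes. With RIN as a covariate the d14 difference of Cnr1 was 0.46 (adjusted p = 0.0816).

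The genes whose levels ran most like a member, among 14165 genes with a mean of at least 50 counts, were ranked by the same within-group correlation over 23 libraries. For Cnr1 they were Fstl5 (0.97), Neto1 (0.97) and Ube3a (0.97). For Dagla they were Galnt17 (0.97), Adarb1 (0.94) and Syt7 (0.94), and for Mgll they were Mgat5b (0.94) and Nsmf (0.93).

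The other genes of the pathway, a list of 40 of which 37 passed the filter, were read in the same way. On d14, 0 of 37 passed the adjusted threshold, and 6 were higher and 5 lower at an unadjusted p under 0.05, a share close to the 26.7% of all genes, with a median log2 difference of -0.02. Among Gq-coupled receptors, which raise diacylglycerol and so 2-AG, the metabotropic glutamate receptor Grm5 differed by 0.47 (SE 0.17, adjusted p = 0.138), and among phospholipases C, which make diacylglycerol, Plcb1 differed by 0.30 (SE 0.10, adjusted p = 0.135). The lipid carrier Fabp7, a fatty acid binding protein of astrocytes and progenitors, differed by -0.70 (SE 0.13, unadjusted p = 1.44e-05, adjusted p = 0.115), and Sgip1, a protein that slows CB1 internalization, by 0.23 (SE 0.09, adjusted p = 0.141). The N-acylethanolamine hydrolase Naaa differed by -0.13 (SE 0.05, adjusted p = 0.144), the lysolipid receptor Gpr55 by 0.52 (SE 0.21, adjusted p = 0.145) and the 2-AG hydrolase Abhd12 by -0.14 (SE 0.07, adjusted p = 0.202).

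Abundant genes of the lists were likewise not called on d14, with values of -0.20 for Gde1, a phosphodiesterase that makes N-acylethanolamines (adjusted p = 0.187), 0.22 for the Gq protein gene Gnaq (adjusted p = 0.151), -0.24 for the lipid carrier Fabp5 (adjusted p = 0.146) and 0.06 for Gnao1, the Go protein that CB1 couples to (adjusted p = 0.388). On d14+3 and between the ExpOF groups 0 of 37 passed, and on d14+3 1 was higher and 3 were lower at an unadjusted p under 0.05, against 7.11% of all genes in either direction. Between the Control groups 2 of 37 rose, against 0.953% of all genes called higher, among them the phospholipase C gene Plcb4 by 0.38 (SE 0.08, adjusted p = 0.0205), which was also called in the average over both diets at 0.38 (adjusted p = 0.000364), where 2 of 37 passed, against 3.67% of all genes. The thalamus markers moved with that comparison as described for the enzymes, and their part in it was not tested for Plcb4.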

How the data were processed

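RNA-seq counts per gene were deposited for 24 mouse hypothalamus libraries, 6 per group. Per the study's methods and the labels, the authors made stranded poly-A libraries, sequenced 51-base read pairs, aligned them with STAR to mm10 and counted reads per GENCODE gene with featureCounts 1.6.4. The deposited values are raw counts. Strand use in counting is not given in the sources used here. Groups, cohort, extraction round and RIN came from the labels. The authors' supplementary means were used once, to find which Control d14 library they had left out. Replicates are separate mice, and none of the 60 pairs of libraries within a group agreed within sampling noise. Pairs between groups were not compared in this way.

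Counts were fitted with edgeR 4.0.16 (R 4.3.3, limma 3.58.1): genes with low counts were dropped by filterByExpr (min.count 10, min.total.count 15), with TMM scaling, and a robust quasi-likelihood F-test of contrasts among 4 groups over 23 libraries, with Benjamini-Hochberg adjustment over all 18992 genes and a threshold of 0.05. Standard errors and 95% intervals come from the same fit. CPM used TMM library sizes, and correlations used log2 CPM with a prior count of 2. TPM divided counts by the summed exon length of the count table. Single genes were also tested by exact two-sided permutation. Precision is set by depth (8928182 to 34848437 counts per library) and by the spread between 5 or 6 mice.

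All 8 genes were reported. Of the other pathway lists, each gene past the threshold in a comparison was named, and otherwise the most abundant and the one with the smallest unadjusted p on d14. Genes with like patterns were the 3 with the highest within-group correlation with Cnr1, Dagla or Mgll. Some genes that these rules name are not reported here. The members and all lists were chosen with earlier results of these data known. Alternatives were DESeq2 1.42.0, its size factors in edgeR, other filters, fitting only the groups compared, all 24 libraries, each cohort alone, RIN or cohort and round as covariates, the replicate number as a block, and each library left out. Removal of GC and length trends, the thalamus marker covariate and the average over both diets were added after the data were seen. The scripts were tested on simulated data. RefSeq promoter windows (GRCm38.p6) were found for 7 of the 8 genes, with none for Dagla.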

Additional observations from a re-analysis of the deposited data

Results flagged for a closer look

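Faah in ExpOF d14 replicate 5 measured 41.1 CPM, below the other 5 libraries of its group by a gap that is large for the group's range. Abhd6 in Control d14+3 replicate 3 measured 42.2 CPM, above the rest of its group in the same sense. Chance alone would flag about 5% of groups.

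The Control d14 library that entered no comparison (replicate 4) lay outside the range of the other 5 Control d14 libraries for 7 of the 8 genes when all were scaled together. It was above them for Mgll (118 CPM against 65.8 to 94.4), Faah (63.5 against 45.7 to 57.0), Abhd6 (45.1 against 28.0 to 35.7) and Cnrip1 (74.6 against 58.9 to 62.0). It was below them for Cnr1 (30.5 CPM against 71.7 to 128), Daglb (16.9 against 27.9 to 30.2) and Napepld (12.2 against 15.5 to 24.8), while Dagla at 52.0 CPM lay within 51.4 to 77.4. Its labelled RIN was 9.8, and the cause of its values was not tested.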

How the results depend on the processing

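No member passed the threshold between diets on either day under any alternative, except Cnr1 on d14 without Control d14 replicate 1 (0.53, adjusted p = 0.0215). The number of genes called on d14 was 166 with DESeq2, 2 with only the groups compared, 0 in July, 0 in September, 4 after GC and length trends were removed, 2 with the thalamus covariate and 1 to 4220 over single libraries left out (4220 without Control d14 replicate 1, 3 without replicate 3). On d14+3 it was 55 with DESeq2, 26 with RIN as a covariate and 1 after GC and length trends. Between the ExpOF groups it was 202 with DESeq2, 28 with at least 10 counts in every library, 123 with only the groups compared, 78 with cohort and round as covariates and 0 to 157 over single libraries left out (157 without ExpOF d14+3 replicate 3, 87 without ExpOF d14 replicate 4). Between the Control groups, with 218 in the report's fit, it was 531 with DESeq2, 0 with only the groups compared, 0 in July, 0 in September, 33 with the replicate block, 0 with the thalamus covariate and 24 to 313 over single libraries left out (under 218 by more than 1.5 times without Control d14 replicates 2 and 3 and Control d14+3 replicates 1, 2 and 4, at 24, 58, 109, 51 and 47). Over both diets, with 697, it was 441 with at least 1 count in all libraries together, 359 with 24 libraries, 1 in July, 71 in September, 406 with the replicate block, 1223 after GC and length trends and 1 with the thalamus covariate. The causes were not tested, and the fits within cohorts also had fewer mice.

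Napepld between the Control groups lost its call with only the groups compared (adjusted p = 0.22), the replicate block (0.128), GC and length trends removed (0.0716), July (0.879), September (0.497) and the thalamus covariate (0.248), and without Control d14 replicate 2 or 3 or Control d14+3 replicate 1, 2, 3 or 4, with values of 0.34 to 0.50 over single libraries left out. Between the ExpOF groups it passed with only the groups compared (adjusted p = 0.0372). Mgll between the Control groups passed after GC and length trends (adjusted p = 0.045). Over both diets Napepld, Mgll and Dagla passed without any single library. Abhd6 passed there without ExpOF d14+3 replicate 2 (adjusted p = 0.0429) or Control d14 replicate 5 (adjusted p = 0.0418), and Faah without Control d14+3 replicate 6 (adjusted p = 0.0408). The calls of Napepld, Mgll and Dagla that were lost over both diets are given in the report, as are the thalamus slopes of Cnr1, Napepld, Abhd6 and Faah that lost theirs within cohorts or with 24 libraries. The labels do not say that replicate numbers pair mice, and some same-numbered mice were of different cohorts. Replicate 1, for example, was of July in ExpOF d14 and of September in Control d14. Same-numbered mice correlated at -0.25 to 0.36 over 33 pairs, 6 of them over 0.1. Differently numbered mice were not set beside them, so these values alone cannot show whether the numbers pair mice.

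Small log2 differences changed sign as follows. On d14 Dagla was 0.046 with 24 libraries, 0.030 in July, 0.0071 with the replicate block, 0.0038 after GC and length trends and 0.058 with the thalamus covariate. Daglb there was 0.0069 with DESeq2, 0.0049 with its size factors, 0.11 with 24 libraries, 0.073 in September, 0.00054 with the block and 0.015 with the thalamus covariate. Abhd6 was 0.047 in July, 0.0055 with the block, 0.052 after GC and length trends and 0.029 with the thalamus covariate, and Napepld was -0.11 in September. On d14+3 Napepld was -0.0048 with at least 1 count, -0.0059 with 24 libraries, -0.13 in September, -0.025 with RIN, -0.0020 with the block and -0.035 after GC and length trends. Daglb there was -0.034 with RIN and -0.018 after GC and length trends, Dagla 0.0082 in July, Cnrip1 0.046 in September and Faah 0.0079 with the thalamus covariate. Between the ExpOF groups Daglb was -0.026 and Cnrip1 0.045 in September, and with the thalamus covariate Cnr1 was 0.19, Dagla -0.093, Daglb -0.060, Mgll -0.090 and Abhd6 -0.064. Between the Control groups Cnr1 was -0.074 in September, -0.091 with RIN and -0.057 after GC and length trends, and Daglb was -0.00020 after those trends. With the thalamus covariate Dagla there was -0.029, Daglb -0.061, Mgll -0.010, Faah -0.10 and Abhd6 -0.0068. Over both diets that covariate gave 0.32 for Cnr1, -0.061 for Dagla, -0.061 for Daglb, -0.050 for Mgll, -0.030 for Faah and -0.035 for Abhd6, and Cnrip1 was 0.013 in September. For the change of the diet difference, 24 libraries gave -0.10 for Daglb, 0.063 for Mgll and 0.040 for Abhd6, July gave -0.027 for Cnrip1, September gave 0.011 for Dagla, -0.073 for Daglb and 0.078 for Abhd6, and RIN gave -0.0019 for Daglb. The RIN slope in September was 0.059 for Cnr1, -0.074 for Faah and -0.11 for Abhd6. The thalamus slope was -0.0015 for Daglb with 24 libraries and -0.047 for Cnrip1 in July.

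With single libraries left out, ranges that crossed 0 were, on d14, -0.087 to 0.056 for Dagla, -0.036 to 0.014 for Daglb and -0.047 to 0.040 for Abhd6. On d14+3 they were -0.13 to 0.042 for Dagla, -0.044 to 0.068 for Daglb, -0.052 to 0.042 for Faah, -0.039 to 0.044 for Napepld, -0.085 to 0.0061 for Abhd6 and -0.035 to 0.0047 for Cnrip1. Between the ExpOF groups they were -0.0013 to 0.11 for Daglb and -0.044 to 0.0095 for Cnrip1, and between the Control groups -0.067 to 0.16 for Cnr1. For the change of the diet difference they were -0.12 to 0.060 for Dagla, -0.041 to 0.070 for Daglb, -0.11 to 0.055 for Mgll and -0.087 to 0.018 for Abhd6. In all, 657 values under the alternatives and 737 with single libraries left out held. They kept their direction and side of the threshold, or stayed within their spread or 1.5 times. Of the others under the alternatives, 63 changed sign, 24 lost a call, 2 gained a call and 26 moved farther. With single libraries left out these numbers were 72, 6, 4 and 9. With 5 or 6 mice per group, the intervals of Cnr1 and Mgll reach about 0.3 to either side of the fitted value. That width is not the limit of the adjusted test, since larger differences also went uncalled. In the edgeR fit Cnr1 was at 0.38 on d14 (adjusted p = 0.142) and Mgll at 0.42 between the Control groups (adjusted p = 0.133).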
